A study of Mus musculus with 23 samples.

Results

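Nuclear receptors switch genes on and off through coregulators, proteins that they recruit to DNA. The 9 coregulator genes described here are Ncoa1, Ncoa2, Ncoa3, Crebbp, Ep300, Med1, Ncor1, Nrip1 and Hdac3. They were taken by gene symbol from a table of 55487 Ensembl gene identifiers. All 9 were among the 15748 genes with enough counts to be tested.

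The p160 coactivators Ncoa1 (SRC-1), Ncoa2 (GRIP1) and Ncoa3 (SRC-3) dock on the ligand-binding domain of a hormone-bound receptor and bring in the acetyltransferases Crebbp (CBP) and Ep300 (p300). Med1 is the subunit by which many nuclear receptors contact the Mediator complex and, through it, RNA polymerase II. On the opposing side, Ncor1 is the scaffold of a corepressor complex in which Hdac3 is the histone deacetylase, and Nrip1 (RIP140) competes for the same receptor surface as the coactivators. The glucocorticoid receptor (GR) can use members of both sides, and many of these proteins serve other transcription factors as well.

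The data are RNA-seq counts of 23 libraries of primary MEFs (mouse embryonic fibroblasts), here from FVB/NJ mice and grown from mid-gestation embryos without head and organs. GRwt/wt cells had the unmodified receptor. In GRD/D cells a threonine replaced an alanine where the DNA-binding domains of a GR dimer meet, and in GRL/L cells an alanine replaced an isoleucine of the ligand-binding domain. GRD+L/D+L cells, the double mutant, combined these, and all mutants were homozygous. Cells of each genotype received vehicle or 10 nM dexamethasone (Dex), a synthetic GR ligand, for 5 h. The 8 groups held 3 libraries each, except GRD/D vehicle with 2, and every culture of a genotype was from another mouse. The L changes were made by CRISPR in zygotes that carried the D allele, and GRL/L and GRD+L/D+L animals die around birth. The GRD+L/D+L line goes back to 1 pup, and the effect of a GR change cannot be told apart from other differences between lines.

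Totals ranged from 16452539 to 23117080 counts per library. Known Dex targets rose in GRwt/wt, with a log2 fold change (LFC) of 3.49 for Fkbp5 (standard error, SE, 0.27, edgeR adjusted p 2.67e-06) and of 1.92 for Tsc22d3 (SE 0.27, adjusted p 0.00272). Nr3c1, the gene that carries the changes, had 4.08 to 88.0 CPM in GRwt/wt vehicle, 105 to 107 CPM in GRD/D vehicle, 133 to 138 CPM in GRL/L vehicle and 128 to 252 CPM in GRD+L/D+L vehicle. Its LFC over GRwt/wt in vehicle was 1.30 for GRL/L (adjusted p 0.126) and 1.90 for the double mutant (adjusted p 0.037), and its part in the coregulator results was not tested. Levels are given as CPM, counts scaled to library size with TMM factors. The 11 fibroblast markers summed to at least 43276 CPM in every library. GRwt/wt vehicle replicate 1 stood apart: the library most like it had a Spearman rho of 0.916, against at least 0.973 for the rest, and its gene deviations followed GC content (rho 0.688). GRwt/wt Dex replicate 1 came next in this (rho 0.323). The others ranged from -0.196 to 0.105, with -0.196 to -0.098 in the GRL/L libraries. The muscle gene Des had 209.96 and 139.9 CPM in GRwt/wt vehicle replicate 1 and GRwt/wt Dex replicate 1, and at most 19.5 CPM elsewhere. GRwt/wt vehicle replicate 3 had a macrophage marker sum of 5038 CPM, whereas the other libraries had at most 1771 CPM.

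Differences in gene length allow levels to be compared between genes only per kilobase of exon. By the median over the 23 libraries, Hdac3 had the highest level with 22.2 RPKM (CPM per kilobase of exon), and it ranged from 20.1 to 31.0 RPKM. Ncor1, its scaffold, followed with 14.0 RPKM (1.31 to 16.6), so that Hdac3 lay above Ncor1 in every library. Med1 (9.07 RPKM), Ep300 (6.98 RPKM) and Ncoa3 (5.24 RPKM) came next, and the ranges of these neighbours overlapped. Ncoa2, Crebbp and Ncoa1 were not separated by their spread, with means of 4.11 ± 1.01, 4.20 ± 0.78 and 4.08 ± 0.97 RPKM (SD, n = 23). Nrip1 was lowest at 2.98 RPKM (0.212 to 3.77). All 9 coregulators were thus detected in every library, the smallest count being 44 reads, for Nrip1 in GRwt/wt vehicle replicate 1.

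The genes lie on 7 chromosomes (GRCm38, GENCODE M21). Ncoa1 is at chr12:4247362-4477182, Ncoa2 at chr1:13139105-13374083, Ncoa3 at chr2:165992636-166073242, Crebbp at chr16:4081328-4213997 and Nrip1 at chr16:76287400-76373827. Ep300 is at chr15:81585351-81652077, Med1 at chr11:98152154-98193293 and Ncor1 at chr11:62316426-62458541. Hdac3 shares its chromosome with Nr3c1, the edited GR gene, at a distance of 1455529 bp. Ncoa3 shares 1.95% of its exon bases with Sulf2 on the opposite strand, and Ncoa1, Ep300 and Ncor1 share under 1% with other genes. As strandedness was not stated, reads from such bases could come from either gene.

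Promoter windows of 300 bases, 250 before and 50 from the RefSeq start on (GRCm38.p6), were found for 6 of the 9 genes. Those of Ep300, Med1 and Ncor1 are shown because the libraries with and without the L change did not overlap in these 3 genes, and Ncor1 is shown with both of its starts because their makeup differs. Capitals mark the GC box GGGCGG, the CCAAT box CCAAT and AGAACA, the half-site of a glucocorticoid response element, each on either strand. Matches of different motifs did not overlap in these windows.
Ep300, chr15:81585964-81586263, plus strand: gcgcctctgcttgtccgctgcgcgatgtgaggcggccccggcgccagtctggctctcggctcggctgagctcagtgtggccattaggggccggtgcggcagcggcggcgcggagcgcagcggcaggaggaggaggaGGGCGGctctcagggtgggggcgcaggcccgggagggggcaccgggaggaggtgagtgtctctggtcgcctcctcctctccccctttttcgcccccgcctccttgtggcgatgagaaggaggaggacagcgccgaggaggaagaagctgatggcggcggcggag
Med1, chr11:98192857-98193156, minus strand: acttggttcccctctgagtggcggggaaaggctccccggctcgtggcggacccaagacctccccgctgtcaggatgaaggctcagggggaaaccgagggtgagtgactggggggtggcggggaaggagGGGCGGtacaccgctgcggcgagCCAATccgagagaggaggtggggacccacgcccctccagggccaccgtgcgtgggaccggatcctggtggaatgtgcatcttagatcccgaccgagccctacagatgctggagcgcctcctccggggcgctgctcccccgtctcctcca
Ncor1, upstream start, chr11:62457283-62457582, minus strand: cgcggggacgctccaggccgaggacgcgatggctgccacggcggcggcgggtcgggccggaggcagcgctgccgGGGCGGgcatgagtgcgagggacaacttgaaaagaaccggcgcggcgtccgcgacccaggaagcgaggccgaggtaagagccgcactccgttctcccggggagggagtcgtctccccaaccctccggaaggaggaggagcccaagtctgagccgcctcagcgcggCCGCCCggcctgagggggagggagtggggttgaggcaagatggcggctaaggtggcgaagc
Ncor1, internal start, chr11:62438466-62438765, minus strand: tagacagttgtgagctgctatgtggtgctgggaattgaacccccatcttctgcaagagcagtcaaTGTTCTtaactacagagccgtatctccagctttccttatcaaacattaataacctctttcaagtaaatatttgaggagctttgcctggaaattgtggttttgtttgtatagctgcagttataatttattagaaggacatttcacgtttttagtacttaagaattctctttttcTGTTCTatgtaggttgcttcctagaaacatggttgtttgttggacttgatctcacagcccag
Ep300 and Med1 each have 1 GC box, and Med1 has the only CCAAT box among the 8 windows of the coregulators. The upstream Ncor1 window has 2 GC boxes and a GC content of 72.3%, whereas the internal one has no GC box, 2 half-sites and a GC content of 38.3%. Across all 32851 promoter windows in the table, 35.7% hold a GC box, 37.4% a CCAAT box and 19% the half-site. The counts are per gene and do not tell which start was used.

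The first question was whether Dex changes the genes of its own coregulators. No coregulator passed the test in any genotype (edgeR, adjusted p at most 0.05). In GRwt/wt, 0.222% of all genes passed and 0.159% were called, that is, passed with an absolute LFC of at least 1. The estimates in GRwt/wt were mostly above 0, with LFC from -0.07 (Hdac3) to 0.74 (Ep300) and a median of 0.58, beside -0.0093 over all genes. An unadjusted p under 0.05 was obtained for 2 coregulators, Ep300 and Crebbp, and for 2454 of the 15748 genes. 

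**Figure D1:**
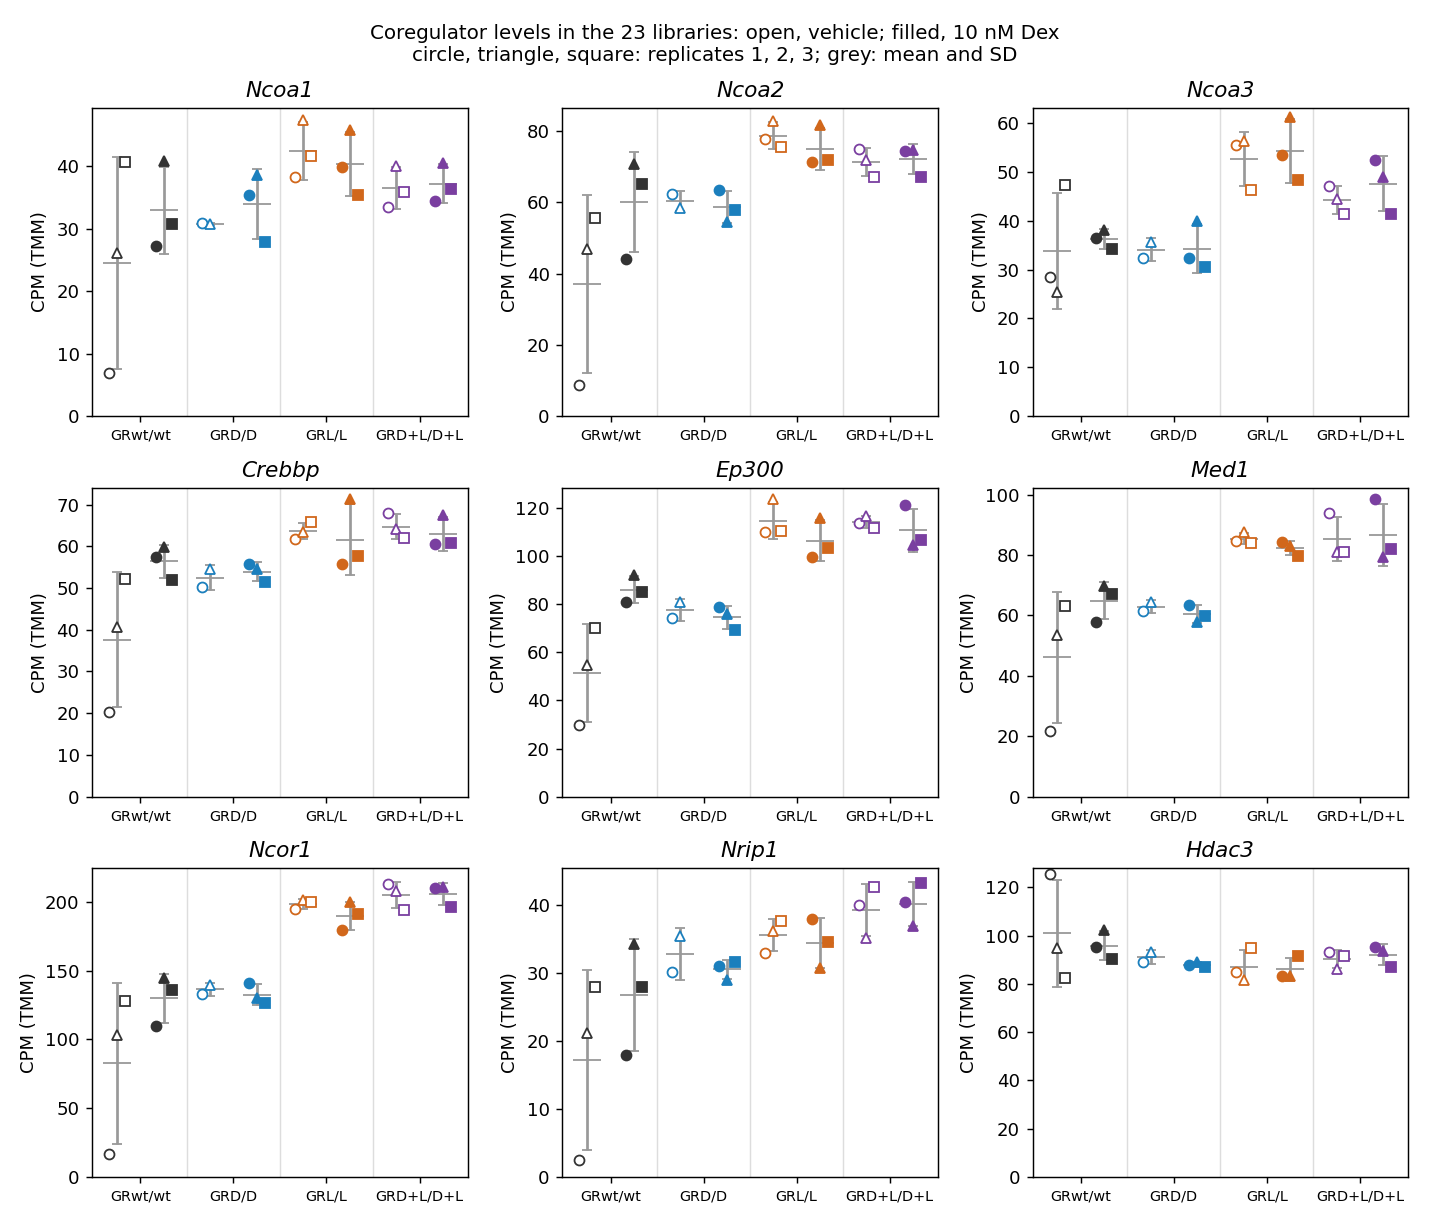
Levels of the 9 coregulators in CPM (y axis, from 0) in each library of the 4 genotypes (x axis), with vehicle open and 10 nM Dex filled, symbols for the replicate number, and the group mean ± SD in grey. For every gene but Ncoa3 and Hdac3 the lowest point is GRwt/wt vehicle replicate 1, and in GRL/L and the double mutant the vehicle and Dex points overlap for each gene.

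Ep300, the p300 acetyltransferase, came closest to a response. Its vehicle libraries in GRwt/wt held 29.7, 54.8 and 70.2 CPM and its Dex libraries 81.1, 92.1 and 85.2 CPM. The groups of Ep300 did not overlap. The LFC of 0.74 (SE 0.20) had an adjusted p of 0.138, and it fell to 0.46 (adjusted p 0.0534) without vehicle replicate 1. Without vehicle replicate 3, Ep300 passed and was called at 1.06 (adjusted p 0.0125), while the genes called rose from 25 to 95 and those passing from 35 to 361 of 15680. DESeq2 with all libraries gave 0.76 (adjusted p 0.0186). Its paralog Crebbp went from 20.2, 40.6 and 52.1 CPM to 57.5, 59.8 and 51.9 CPM, groups that overlapped narrowly. The LFC of Crebbp was 0.58 (SE 0.21, adjusted p 0.209), then 0.28 without vehicle replicate 1, and it passed at 0.92 (adjusted p 0.0341) without vehicle replicate 3. DESeq2 called 0 coregulators and passed 1, Ep300, in this comparison, where it passed 551 genes against 35 by edgeR.

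None of the p160 coactivators passed with Dex in GRwt/wt. Ncoa2, itself a corepressor as well as a coactivator of GR, had an LFC of 0.69 (SE 0.38), against 0.42 (SE 0.36) for Ncoa1 and 0.10 (SE 0.18) for Ncoa3. Without vehicle replicate 1, the values were 0.23, -0.02 and -0.0087. Leaving out vehicle replicate 3 instead gave 1.13, 1.02 and 0.47, none of which passed (adjusted p 0.124, 0.109 and 0.0791). Ncoa2 had 8.83 CPM in vehicle replicate 1 and 47.0 and 55.7 CPM in the other vehicle libraries, beside 44.2, 70.8 and 65.1 CPM with Dex. Only the library that stood apart lay below all Dex libraries of Ncoa2.

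Med1 and the corepressors did not pass either. Ncor1 had 16.8, 103 and 128 CPM in vehicle and 109.9, 144 and 136 CPM with Dex, and Nrip1 had 2.43, 21.2 and 27.9 CPM in vehicle and 17.9, 34.2 and 28.0 CPM with Dex. The groups overlapped for both. The LFC was 0.65 (SE 0.40) for Ncor1, 0.63 (SE 0.47) for Nrip1 and 0.49 (SE 0.24) for Med1, and 0.17, 0.12 and 0.16 without vehicle replicate 1. Hdac3 went the other way in that library, with 126 CPM against 94.7 and 82.6 CPM in the other vehicle libraries, and its LFC changed from -0.07 to 0.11 when the library was left out. The median over the coregulators was then 0.16, whereas it was 1.02 without vehicle replicate 3. That fit gave 1.14 for Ncor1, 1.20 for Nrip1 and 0.82 for Med1, and they did not pass (adjusted p 0.133, 0.176 and 0.0752).

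In the mutants the estimates were near 0. The LFC with Dex ranged from -0.10 (Nrip1) to 0.14 (Ncoa1) in GRD/D, from -0.11 (Ep300) to 0.04 (Ncoa3) in GRL/L, and from -0.04 (Ep300) to 0.10 (Ncoa3) in GRD+L/D+L. All adjusted p-values were 1, and no coregulator had an unadjusted p under 0.05. Over all genes, 0% passed in each mutant by edgeR, with 154, 43 and 54 genes at an unadjusted p under 0.05, and DESeq2 passed 3, 0 and 5 genes. The Dex target Fkbp5 did not pass in GRD/D either, at an LFC of 1.68 (SE 0.29, adjusted p 0.137). It had 31.1 to 32.6 CPM in GRD/D vehicle and 93.9 to 118 CPM with Dex, so a gene that did not pass could still respond. Among the coregulators, Ep300 had 74.4 and 81.0 CPM in GRD/D vehicle and 78.8, 75.8 and 69.2 CPM with Dex. In GRL/L it had 110.3, 124 and 111 CPM in vehicle and 99.7, 116 and 104 CPM with Dex. The vehicle and Dex libraries of Ep300 overlapped in each mutant. Those of Hdac3 did not overlap in GRD/D, with 89.2 and 93.3 CPM in vehicle and 87.2 to 88.9 CPM with Dex (LFC -0.05). The SE over the 3 mutants ranged from 0.12 for Hdac3 to 0.52 for Nrip1, so that for Nrip1 in GRD/D the 95% interval of the LFC reached from -1.12 to 0.91.

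**Figure D2:**
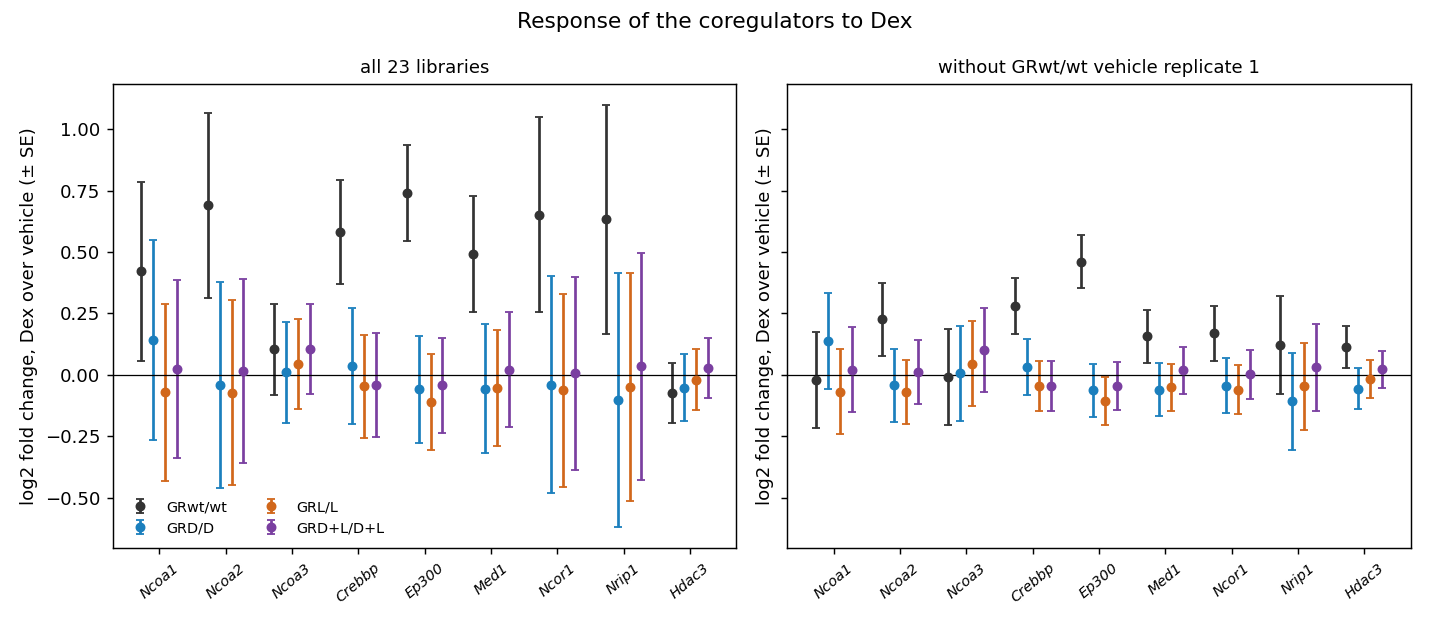
LFC of Dex over vehicle (y axis, log2 scale, ± SE) for the 9 coregulators (x axis) in the 4 genotypes, with all 23 libraries on the left and without GRwt/wt vehicle replicate 1 on the right. The GRwt/wt median of 0.58 drops to 0.16 on the right, where Ep300 has the highest value at 0.46, and the mutants lie between -0.11 and 0.14 on the left.

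Whether the mutants respond differently from GRwt/wt was tested directly as an interaction. For Ep300 the difference of the LFC was -0.80 for GRD/D (adjusted p 0.688), -0.85 for GRL/L (adjusted p 0.785) and -0.78 for GRD+L/D+L (adjusted p 0.969), with SE between 0.28 and 0.29. These were the largest differences among the coregulators in each mutant, and Ep300 was the only one with an unadjusted p under 0.05, beside 1119, 990 and 796 of all genes. The 3 differences share the GRwt/wt libraries. No coregulator passed, with 0% of all genes passing in GRD/D and 0.0254% in each of GRL/L and the double mutant. DESeq2 called 0 coregulators in each of these tests. Without GRwt/wt vehicle replicate 1 the differences of Ep300 were -0.52, -0.57 and -0.51 (adjusted p 0.262, 0.277 and 0.329). Over the coregulators, median differences were -0.55, -0.63 and -0.60, and without that library they were -0.22, -0.21 and -0.14. Leaving out GRwt/wt vehicle replicate 3 instead gave -0.89, -1.10 and -1.002.

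The second question was whether the basal levels differ between the genotypes. In vehicle, 6 coregulators passed higher in GRL/L than in GRwt/wt, namely Ncoa2, Ncoa3, Crebbp, Ep300, Med1 and Ncor1, and 0 passed lower. Of all genes 8.83% passed higher. Ncoa2, Ep300 and Ncor1 were also called, beside 4.93% of all genes. In GRD+L/D+L, 4 passed higher (Crebbp, Ep300, Med1 and Ncor1; 7.14% of all genes) and 2 were called, Ep300 and Ncor1 (3.62% of all genes). In GRD/D, 0 of 9 passed or were called, beside 0.00635% of all genes that passed higher and 0% that were called higher. 1 coregulator had an unadjusted p under 0.05 there, beside 1946 of all genes. It was Ep300 at an LFC of 0.59 (SE 0.22, adjusted p 0.342), and DESeq2 called 0. The median LFC was 0.89 in GRL/L, 0.89 in the double mutant and 0.48 in GRD/D, while the median of all genes was -0.05, -0.05 and -0.06. The coregulator medians were 0.53, 0.50 and 0.18 without GRwt/wt vehicle replicate 1, and 1.39, 1.22 and 0.92 without GRwt/wt vehicle replicate 3.

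Ep300 had the smallest adjusted p in both mutants with the L change. It had 110.3, 124 and 111 CPM in GRL/L vehicle and 114, 117 and 112 CPM in GRD+L/D+L vehicle, all above the GRwt/wt vehicle libraries at 29.7 to 70.2 CPM. The LFC of Ep300 was 1.15 (SE 0.20) in either mutant, with adjusted p-values of 0.000893 for GRL/L and 0.00136 for the double mutant. Both became 0.88 without GRwt/wt vehicle replicate 1 (adjusted p 9.18e-05 and 0.000103), and Ep300 passed whichever library was left out. In a model of only the genotypes compared it passed in GRL/L (adjusted p 0.0243) but not in the double mutant (1.18, adjusted p 0.0604). The related acetyltransferase Crebbp was higher by 0.76 (SE 0.21, adjusted p 0.0164) and 0.78 (SE 0.21, adjusted p 0.0174). Its 61.7, 63.6 and 65.8 CPM in GRL/L and 68.0, 64.2 and 62.0 CPM in GRD+L/D+L did not overlap the 20.2 to 52.1 CPM in GRwt/wt vehicle. The LFC of Crebbp without GRwt/wt vehicle replicate 1 was 0.46 (adjusted p 0.00879) and 0.50 (adjusted p 0.00605). With a correction for GC content and length Crebbp did not pass, at 0.30 (adjusted p 0.188) and 0.46 (adjusted p 0.0513).

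Med1 had 84.7, 87.6 and 83.9 CPM in GRL/L vehicle and 93.7, 81.1 and 81.1 CPM in GRD+L/D+L vehicle, against 21.7, 53.5 and 63.0 CPM in GRwt/wt. The 2 mutants lay above all GRwt/wt vehicle libraries. The LFC was 0.89 (SE 0.24) in both, with adjusted p-values of 0.0125 and 0.0159, and 0.55 and 0.57 without GRwt/wt vehicle replicate 1 (adjusted p 0.00176 and 0.00183). In a model of only the genotypes compared, Med1 did not pass, at 0.89 (adjusted p 0.0771) and 0.92 (adjusted p 0.149).

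Ncor1 had 195, 201 and 199.6 CPM in GRL/L vehicle and 213, 208 and 194 CPM in GRD+L/D+L vehicle. The spread within these groups was small beside that of GRwt/wt, where the same gene had 16.8, 103 and 128 CPM. The LFC was 1.26 (SE 0.40, adjusted p 0.0305) and 1.31 (SE 0.40, adjusted p 0.0298), and it was 0.78 and 0.84 without GRwt/wt vehicle replicate 1 (adjusted p 0.000245 and 0.000178). Leaving out any vehicle library of the mutant compared ended the call of Ncor1, with LFC of 1.28, 1.26 and 1.26 for GRL/L (adjusted p 0.0658, 0.0703 and 0.0656) and of 1.30, 1.30 and 1.35 for the double mutant (adjusted p 0.0587, 0.0739 and 0.0617). In a model of only the genotypes compared, Ncor1 did not pass, at 1.26 (adjusted p 0.130) and 1.33 (adjusted p 0.189). With the GC and length correction it did not pass in GRL/L (0.80, adjusted p 0.0517) but was called in the double mutant.

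Among the p160 coactivators, Ncoa2 was called in GRL/L at 1.08 (SE 0.38), where the adjusted p of 0.048 was close to the threshold. Its LFC for GRD+L/D+L was 0.94 (SE 0.38, adjusted p 0.0871). It had 77.8, 82.9 and 75.5 CPM in GRL/L vehicle and 75.0, 71.8 and 67.1 CPM in GRD+L/D+L vehicle. In GRL/L it no longer passed when any library outside the GRwt/wt vehicle group was left out (1.05 to 1.11, adjusted p 0.0519 to 0.111). Nor did it pass there with the GC and length correction (0.49, adjusted p 0.137) or with only the genotypes compared in the model (1.08, adjusted p 0.163). Its LFC without GRwt/wt vehicle replicate 1 was 0.62 (adjusted p 0.00706) and 0.49 (adjusted p 0.026), past the threshold in both mutants but short of the fold. In the double mutant Ncoa2 was called without GRwt/wt vehicle replicate 3, at 1.39 (adjusted p 0.0214). Ncoa3 passed in GRL/L at 0.64 (SE 0.18, adjusted p 0.0187) with overlapping groups, since GRwt/wt vehicle replicate 3 reached 47.3 CPM and GRL/L started at 46.3 CPM. It did not pass without GRwt/wt vehicle replicate 1 (0.53, adjusted p 0.0589) or 2 (0.46, adjusted p 0.0702), nor without GRL/L vehicle replicate 1 (0.60, adjusted p 0.0628) or 2 (0.59, adjusted p 0.0666). In the double mutant Ncoa3 passed only when GRwt/wt vehicle replicate 3 was the library left out (0.77, adjusted p 0.00117). Ncoa1 did not pass, with 0.79 (SE 0.37) in GRL/L and 0.57 (SE 0.36) in the double mutant. It was called in both without GRwt/wt vehicle replicate 3, at 1.39 (adjusted p 0.0078) and 1.18 (adjusted p 0.0224), and had 0.34 and 0.14 without GRwt/wt vehicle replicate 1.

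Nrip1 had similar estimates and wide errors, an LFC of 1.05 for GRL/L (adjusted p 0.113) and of 1.19 for GRD+L/D+L (adjusted p 0.0814), both with an SE of 0.47. Its mutant libraries, from 33.0 to 42.6 CPM, lay above the GRwt/wt vehicle libraries at 2.43 to 27.9 CPM. Without GRwt/wt vehicle replicate 1 Nrip1 passed in the double mutant (0.69, adjusted p 0.0216) but not in GRL/L (0.53, adjusted p 0.0636). It was called in both without GRwt/wt vehicle replicate 3, at 1.62 for GRL/L (adjusted p 0.0235) and 1.77 for the double mutant (adjusted p 0.0198), and with the GC and length correction it passed in the double mutant (0.74, adjusted p 0.0222). Hdac3 was the only coregulator with estimates below 0, with -0.21 for GRL/L (adjusted p 0.216) and -0.16 for GRD+L/D+L (adjusted p 0.357), both with an SE of 0.12, and with -0.02 and 0.05 without GRwt/wt vehicle replicate 1.

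In all, 6 coregulators did not overlap with GRwt/wt vehicle in GRL/L and 6 in the double mutant, each time on the higher side, beside 19.6% and 13.4% of all genes. In GRD/D, 4 did not overlap and were higher (Ncoa2, Ep300, Ncor1 and Nrip1), beside 11.1% of all genes. The number called depended on single libraries. It was 0 in both mutants without GRwt/wt vehicle replicate 1, where 5 coregulators passed in GRL/L (11.9% of all genes) and 6 in the double mutant (11.5%), of which Ncoa2 and Nrip1 did not pass with all libraries, and 0 in GRD/D (0.00638%). It was 8 and 7 without GRwt/wt vehicle replicate 3, where the genes called rose from 1225 and 1311 to 2674 and 2003 of 15680 tested. It was 1 when any single vehicle replicate of the mutant compared was left out, a fit with fewer libraries in that group. A correction for GC content and length left 0 called in GRL/L, where Ep300 (0.65) and Med1 (0.38) passed, and 1 called in GRD+L/D+L, Ncor1 at 1.01. With that correction the genes called rose to 1323 and 1418. In a model of only the genotypes compared, Ep300 alone passed in GRL/L, and 0 coregulators passed in the double mutant. All genes passing in that model fell from 3628 to 1793 (of 14943 tested) for GRL/L and from 3216 to 163 (of 14725) for the double mutant.

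**Figure D3:**
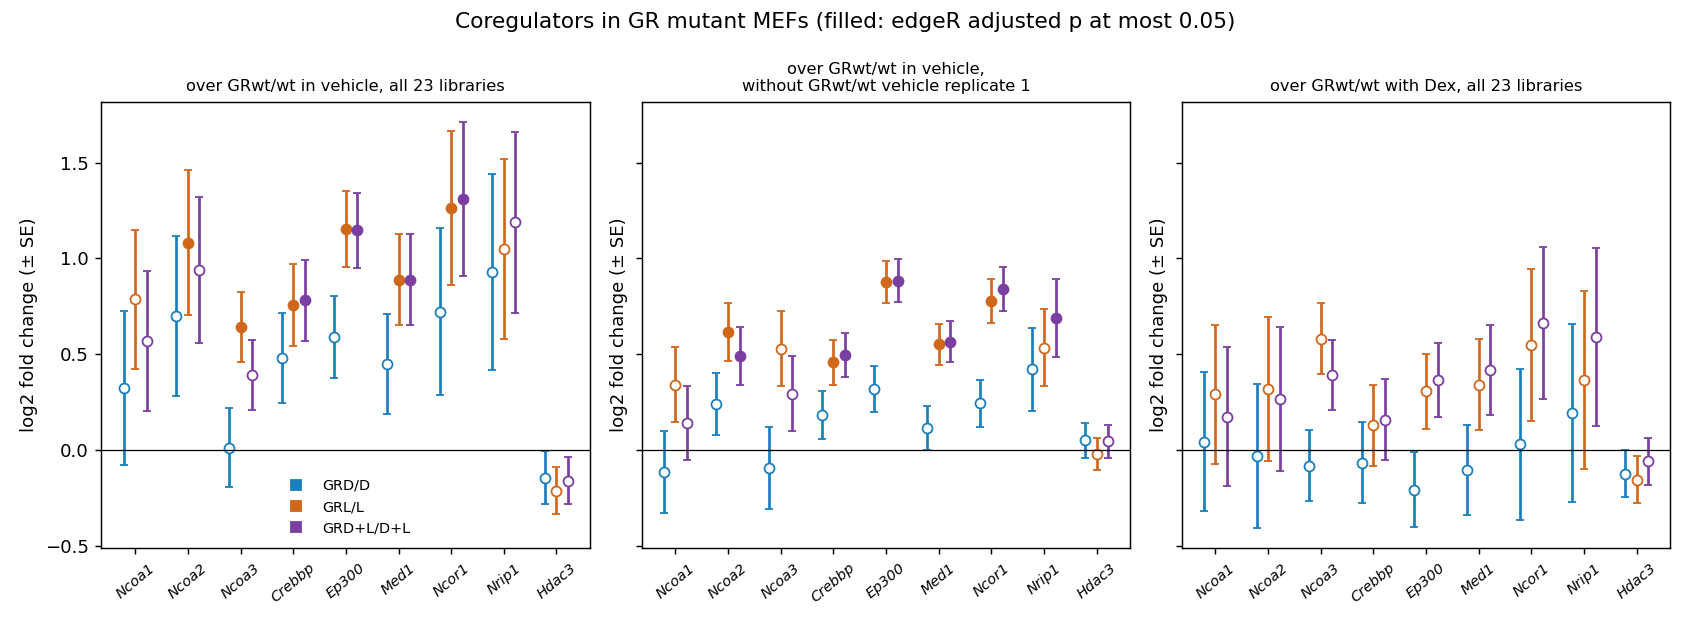
LFC of each mutant over GRwt/wt (y axis, log2 scale, ± SE) for the 9 coregulators (x axis) in vehicle with all 23 libraries (left), in vehicle without GRwt/wt vehicle replicate 1 (middle) and with Dex (right), with filled points for an adjusted p at most 0.05. GRL/L and the double mutant lie side by side, with Ep300 at 1.15 on the left and 0.88 in the middle, and 0 points are filled on the right.

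The same genotypes were compared with Dex, in libraries that do not include the GRwt/wt vehicle group. No coregulator passed, with 2.57% (GRL/L), 1.92% (GRD+L/D+L) and 0.0254% (GRD/D) of all genes passing higher. By edgeR, 1, 1 and 0 coregulators had an unadjusted p under 0.05, as did 3579, 3291 and 1750 of all genes, and DESeq2 called 0 in each. The groups of 5 coregulators in GRL/L and 6 in the double mutant did not overlap with GRwt/wt and were higher, beside 22.2% and 15.3% of all genes. In GRD/D, Ep300 and Hdac3 did not overlap with GRwt/wt and were lower, as were 12.4% of all genes. Median LFC were 0.32 in GRL/L, 0.37 in GRD+L/D+L and -0.07 in GRD/D. That of GRL/L was 0.081 with the GC and length correction and 0.17 without GRwt/wt Dex replicate 1.

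In this test all groups shared 1 estimate of the spread. Leaving out GRwt/wt vehicle replicate 1, which is in none of these groups, kept the LFC of Ncor1 in GRL/L at 0.55 and lowered its SE from 0.40 to 0.10. In that fit, 4 coregulators passed higher in GRL/L (11.8% of all genes). They were Ncor1 (0.55, adjusted p 0.0016), Med1 (0.34, adjusted p 0.0178), Ncoa3 (0.58, adjusted p 0.0243) and Ep300 (0.31, adjusted p 0.0319). In GRD+L/D+L, 4 passed higher as well (11.3% of all genes), namely Ncor1 (0.67, adjusted p 0.000548), Med1 (0.43, adjusted p 0.00657), Ep300 (0.38, adjusted p 0.0131) and Nrip1 (0.60, adjusted p 0.0265). In GRD/D, 0 passed, beside 0.319% of all genes.

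GRD/D served as a second reference in comparisons added after the GRwt/wt vehicle libraries were seen to differ. With all libraries, 0 coregulators passed in vehicle for GRL/L (1.19% of all genes higher) or GRD+L/D+L (0.648%), where 2 and 1 had an unadjusted p under 0.05, beside 2440 and 2436 of all genes. With Dex, Ncoa3 passed in GRL/L (0.66, SE 0.18, adjusted p 0.04; 3.73% of all genes), and 0 passed in GRD+L/D+L (3.52%), where 3 had an unadjusted p under 0.05, beside 3748 of all genes. Without GRwt/wt vehicle replicate 1, Ep300, Med1 and Ncor1 passed in all 4 of these comparisons. In vehicle their LFC were 0.56, 0.44 and 0.54 in GRL/L (6.11% of all genes passed higher) and 0.57, 0.45 and 0.60 in GRD+L/D+L (5.16%). With Dex they were 0.51, 0.45 and 0.52 in GRL/L (11.2%), where Ncoa3 passed too (0.66), and 0.58, 0.53 and 0.64 in GRD+L/D+L (11.6%). These comparisons share libraries with each other and with those above. Between GRL/L and the double mutant, no coregulator passed in vehicle or with Dex (0 passed, 0 with an unadjusted p under 0.05; 0.108% and 0.127% of all genes passed), and the LFC between them ranged from -0.25 to 0.14 in vehicle.

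Read over all libraries, the 12 with the L change and the 11 without it did not overlap in Ncor1 (179 to 213 against 16.8 to 144 CPM), Ep300 (99.7 to 124 against 29.7 to 92.1 CPM) and Med1 (79.4 to 98.4 against 21.7 to 69.6 CPM). These were 3 of 9 coregulators, all higher with the L change, beside 4.63% of all genes that did not overlap and were higher. Hdac3 ranged from 81.6 to 95.4 CPM with the L change and from 82.6 to 126 CPM without it. The 4 neural markers in the fit, of 5 listed, summed to 8.45 to 33.3 CPM with the L change and to 40.2 to 109.8 CPM without it, and their part in the result was not tested. Macrophage markers (11 of 11 in the fit) spanned 6.09 to 784 CPM and 16.6 to 5038 CPM. Endothelial (4 of 5), epithelial (3 of 5) and skeletal muscle markers (1 of 5, Des) overlapped too, with Des highest in GRwt/wt vehicle replicate 1 and GRwt/wt Dex replicate 1. In bulk RNA, fewer cells of a type and less RNA per cell cannot be told apart.

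Other coregulator genes were read from 4 lists, chosen by function. In GRwt/wt with Dex, 0 of 22 other coactivators, 0 of 16 other corepressors, 0 of 16 SWI/SNF remodelling genes and 1 of 31 other Mediator genes passed. That gene was Med13l, a subunit of the kinase module of Mediator, with 41.8 ± 14.4 CPM in vehicle and 89.6 ± 16.04 CPM with Dex (SD, n = 3). Its LFC was 1.10 (SE 0.19, adjusted p 0.0173) and 0.84 (adjusted p 0.00337) without GRwt/wt vehicle replicate 1. Med13l was also called in vehicle, with an LFC of 1.38 for GRL/L and 1.28 for GRD+L/D+L (adjusted p 0.000212 and 0.000537). Without that library, 1 other coactivator and 1 SWI/SNF gene also passed, while all genes passing rose from 35 to 148 of 15686. Dex against vehicle in the mutants gave 0 genes of the 4 lists.

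Between genotypes in vehicle, the lists were read for GRL/L and the double mutant. In GRL/L, 3 other coactivators passed higher and 3 lower, 4 other corepressors higher and 4 lower, 3 Mediator genes higher and 7 lower, and 5 SWI/SNF genes higher and 2 lower, beside 8.83% of all genes higher and 14.2% lower. In the double mutant the counts were 4 and 0, 4 and 1, 3 and 6, and 5 and 1, beside 7.14% higher and 13.3% lower. Without GRwt/wt vehicle replicate 1 they were 4 and 1, 6 and 1, 5 and 10, and 6 and 0 in GRL/L, and 7 and 0, 7 and 1, 5 and 8, and 8 and 1 in the double mutant, beside 12.5% and 12.3% of all genes lower and the 11.9% and 11.5% higher given above. The median LFC of the Mediator list was -0.17 for GRL/L and -0.13 for the double mutant. It was 0.32 and 0.40 for the other coactivators, 0.23 and 0.30 for the other corepressors and 0.17 and 0.15 for the SWI/SNF genes. Without GRwt/wt vehicle replicate 1 the Mediator medians were -0.18 for GRL/L and -0.15 for the double mutant, and those of the other coactivators 0.22 and 0.27. In the same fit the corepressor medians were -0.09 and 0.17 and the SWI/SNF medians 0.31 and 0.38. Called were Nsd1, a histone methyltransferase (1.28 in GRL/L and 1.34 in the double mutant), Lcor, a ligand-dependent corepressor (1.83 and 1.56), Arid2, a subunit of the PBAF remodelling complex (1.05 and 1.18), and, for GRL/L, Smarca2, a remodelling ATPase (1.28). Lcor had 15.7 ± 1.47 CPM in GRL/L vehicle and 4.39 ± 3.10 CPM in GRwt/wt vehicle (SD, n = 3). Without GRwt/wt vehicle replicate 1, Lcor (1.42 and 1.17) and Med13l (1.12 and 1.04) were still called, and Nsd1, Arid2 and Smarca2 fell short of the fold. In that fit Helz2 (1.04, adjusted p 0.00116) and Med12 (1.03, adjusted p 0.000138) were called in GRL/L. Between GRL/L and the double mutant, 0 genes of the 4 lists passed.

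With Dex, the called genes were Lcor in GRL/L (1.57, adjusted p 0.0205), Ppargc1b, a coactivator of nuclear receptors, in GRD+L/D+L (1.41, adjusted p 0.0376) and Cited2, a partner of Crebbp and Ep300, lower in GRD/D (-1.32, adjusted p 0.0215), each against GRwt/wt, beside 408, 433 and 40 of all genes called. These calls held without GRwt/wt vehicle replicate 1, where 952, 959 and 123 genes were called. In that fit Ppargc1b was also called in GRL/L (1.05, adjusted p 0.0492), and Lcor (1.30, adjusted p 0.00312) and Pbrm1, a subunit of the PBAF complex (1.15, adjusted p 0.00156), in the double mutant. Levels of Ppargc1b were low. With Dex it had 0.44 to 0.66 CPM in GRwt/wt, 1.11 to 1.22 CPM in GRL/L and 0.92 to 1.79 CPM in GRD+L/D+L. In vehicle it had 0.70 to 1.27 CPM in GRwt/wt and 1.04 to 1.65 CPM in GRD+L/D+L. Against GRD/D, Helz2 was called in GRL/L vehicle (1.00, adjusted p 0.0157, but 0.99 and short of the fold without GRwt/wt vehicle replicate 1) and Med12, a subunit of the Mediator kinase module, in GRL/L with Dex (1.08, adjusted p 0.000757).

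The coregulators were also compared with each other across libraries, as a description, since libraries share genotypes, treatments and composition. Without GRwt/wt vehicle replicate 1, the 28 pairs that do not involve Hdac3 had Spearman rho from 0.27 to 0.90, with a median of 0.73. The highest was Ep300 with Ncor1, a coactivator and a corepressor. Nrip1 and Ncoa1 gave the lowest of these. The 8 pairs with Hdac3 ranged from -0.38 to 0.058, and that of the deacetylase with its scaffold Ncor1 was -0.0062. Hdac3 was also the steadiest gene, with a coefficient of variation of 5.80% over these 22 libraries, against 12.1% to 22.5% for the others.

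**Figure D4:**
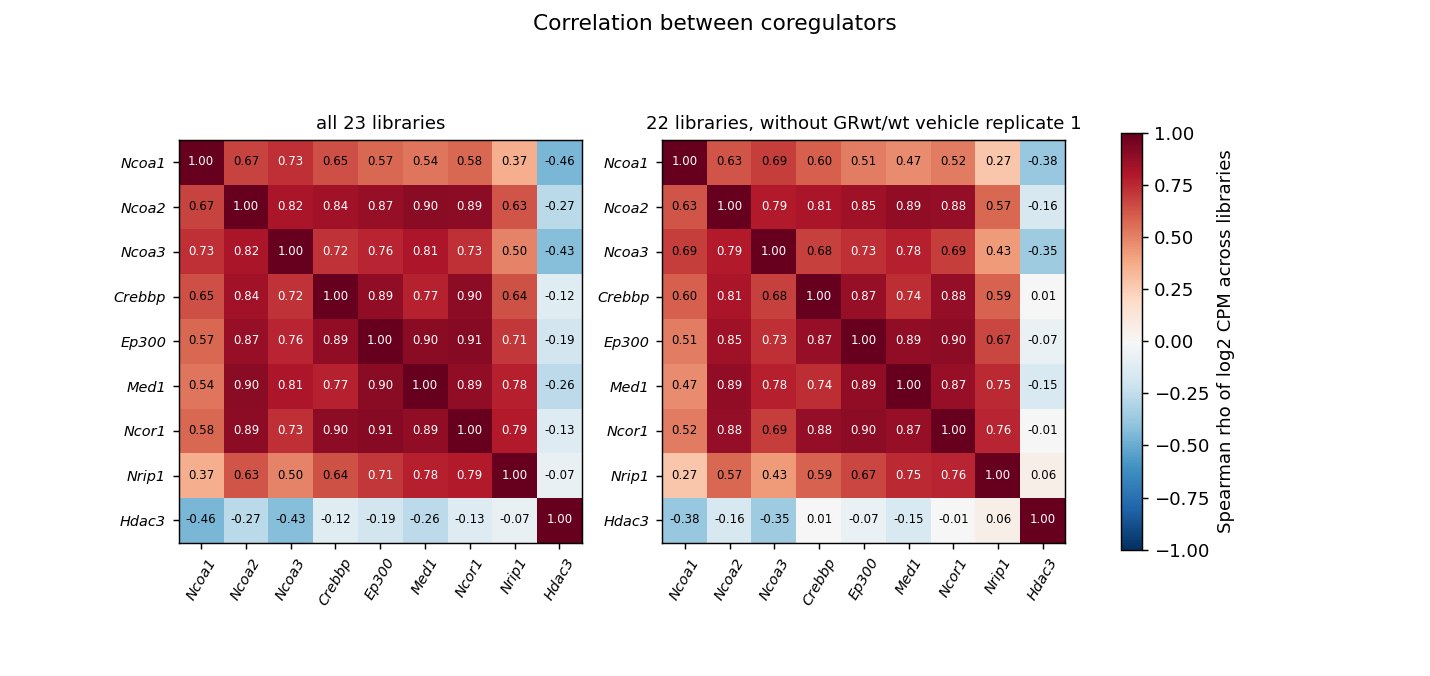
Spearman rho of log2 CPM between the 9 coregulators (both axes) across all 23 libraries (left) and across 22 without GRwt/wt vehicle replicate 1 (right), on a colour scale from -1 to 1. The 28 pairs without Hdac3 are all above 0, and the Hdac3 row lies between -0.38 and 0.058 on the right.

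Genes outside the list that followed a coregulator most closely over the 22 libraries are named by rank, again with no test. Med1 was followed by Cdk12, a kinase of RNA polymerase II, at rho 0.964, then Zfp871 (0.957) and Ylpm1 (0.948). Ep300 was followed by Zfyve26 (0.960), Arid1a (0.944) and Rprd2 (0.936), and Ncor1 by Zfyve26 (0.956), Erc1 (0.953) and Kmt2e (0.949). With all 23 libraries the rho of Zfyve26 was 0.795 for Ep300 and 0.790 for Ncor1. The closest gene was Marf1 (0.948) for Ncoa2, Nxf1 (0.939) for Ncoa3, Baz1b (0.927) for Crebbp, Polr1a (0.910) for Nrip1 and Zbtb34 (0.864) for Ncoa1. For Hdac3 it was Xrcc5 (0.800), whose rho was 0.575 with all 23 libraries.

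Length and GC content came from the annotation, and their part in any result above was not tested beyond the GC and length correction. In GRwt/wt vehicle replicate 1, the deviation from the median of all libraries was -3.76 on the log2 scale for Nrip1, -3.41 for Ncor1, -2.91 for Ncoa2, -2.36 for Ncoa1, -1.86 for Med1, -1.74 for Ep300, -1.505 for Crebbp and -0.54 for Ncoa3, but 0.48 for Hdac3. Nrip1 has the lowest GC content of the 9 genes (43.6%), and Crebbp the highest (51.7%). Hdac3, at chr18:37935844-37955016, has 4054 exon bases, close to the median of 4168 over all genes tested, and the other coregulators have from 7895 (Ncoa3) to 15642 (Ncoa2).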

How the data were processed

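Total RNA of primary MEFs was made into TruSeq libraries and sequenced on an Illumina NovaSeq by the authors. Per the labels and methods, the authors mapped reads to mm10 (GRCm38) with HISAT2 2.1.0, kept those that mapped uniquely and assigned them to genes with featureCounts 2.0.0, and the deposited values are raw counts. Strandedness and the annotation release were not given in the sources used here. Symbols, coordinates and exon lengths came from GENCODE M21, which held 55227 of the 55487 identifiers. All 23 columns were matched to libraries by name.

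The counts were tested with edgeR 4.0.16 (quasi-likelihood, R 4.3.3), with all libraries in 1 model with 1 mean per group, TMM factors and filterByExpr (15748 genes). LFC used a prior count of 0.125. A gene passed if its p, adjusted over all genes after Benjamini and Hochberg, was at most 0.05, and was called if the absolute LFC was also at least 1, the thresholds of the study. The SE is the absolute LFC over the root of F. Contrasts were Dex against vehicle, its difference between each mutant and GRwt/wt, and genotypes within a treatment. All tests were two-sided. P-values rest on the spread between libraries within groups, estimated over all groups together and not over those compared alone. Depth gave between 44 and 4550 counts per coregulator and library. No pair of libraries within a group agreed within counting noise (mean chi-square per gene at least 9.11).

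The coregulators and gene lists were chosen with earlier results of these data known. Named genes were the 9 coregulators, Fkbp5, Tsc22d3 and Nr3c1 as checks, up to 3 called genes with the largest absolute LFC per list and comparison, and the 3 genes with the highest Spearman rho (log2 CPM, prior count 2) to each coregulator. The fit was checked on simulated counts. Alternatives were RLE and upper-quartile scaling, other expression filters, adjusted p alone, a model of only those genotypes that a comparison involves, a block for replicate number, GC and length correction (splines with 4 degrees of freedom), a prior count of 2, DESeq2 1.42.0 and leaving out each library.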

Additional observations from a re-analysis of the deposited data

Results flagged for a closer look

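For Med1, all 3 Dex libraries of GRwt/wt lay above the mean of the vehicle libraries, and in GRL/L all 3 lay below it. Neither Dex response passed. The GRwt/wt vehicle mean includes replicate 1 at 21.7 CPM. The difference of the LFC was -0.55 (SE 0.33). The interaction did not pass (edgeR, adjusted p 0.832), and without GRwt/wt vehicle replicate 1 the difference was -0.21 (adjusted p 0.822).

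For Nrip1, all 3 Dex libraries lay above the vehicle mean in GRwt/wt and below it in GRD/D, and neither response passed. GRwt/wt vehicle replicate 1 had 2.43 CPM. The difference of the LFC was -0.74 (SE 0.69). This interaction did not pass either (edgeR, adjusted p 0.892), and without GRwt/wt vehicle replicate 1 the difference was -0.23 (adjusted p 0.891).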

How the results depend on the processing

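The number of coregulators called in vehicle was 3 for GRL/L and 2 for the double mutant, GRD+L/D+L. It was 6 and 4 by adjusted p alone, 1 and 0 with only the genotypes compared in the model, and 0 and 1 with the GC and length correction. Over all genes, 1225 and 1311 were called, 705 and 111 with only the genotypes compared, and 1323 and 1418 with the correction. Leaving out 1 library gave 0 to 8 for GRL/L and 0 to 7 for the double mutant, the extremes being those without GRwt/wt vehicle replicates 1 and 3. For Dex in GRwt/wt the range was 0 to 1, the 1 being Ep300 without vehicle replicate 3, where 95 genes were called against 25 with all libraries. Median differences of the Dex response ranged from -1.10 to -0.21 for GRL/L and from -1.002 to -0.14 for the double mutant. The median of GRL/L against GRwt/wt with Dex was 0.081 with the GC and length correction and ranged from 0.17 to 0.46 when 1 library was left out. Signs changed with Dex in GRwt/wt for Ncoa1 (-0.021 to 1.02 over the libraries left out), Ncoa3 (-0.072 to 0.47, -0.0087 without vehicle replicate 1, and -0.020 with the GC and length correction) and Hdac3 (-0.16 to 0.11), and in GRD+L/D+L vehicle for Hdac3 (-0.23 to 0.045). The causes were not tested. Upper-quartile scaling moved the median of all genes in GRL/L vehicle from -0.05 to -0.17.

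The sources used here do not tie a replicate number to a culture. The deviations of same-numbered samples correlated at r from -0.20 to 0.89, above 0.1 in 8 of 11 pairs but not in every pair, the condition for pairing, and so the samples were taken to share only a number. The Dex tests thus make no use of cultures that vehicle and Dex libraries may share. With the replicate block, 3 and 2 coregulators were called for GRL/L and the double mutant in vehicle, as without it, and Ep300 passed with Dex in GRwt/wt (0.82, adjusted p 0.0445, and 0.51, adjusted p 0.0468, with the GC and length correction added). All genes passing there rose from 35 to 473 and 517. The replicate block with the GC and length correction left 0 and 1 called, and a median of 0.10 for GRL/L against GRwt/wt with Dex. Every vehicle sample of GRL/L and the double mutant correlated best with its own number. This did not hold in GRwt/wt, where vehicle replicate 2 went with Dex replicate 3 (r 0.54, 0.027 with its own number) and 3 with 2 (0.37, -0.026), nor in GRD/D, where vehicle replicate 2 went with Dex replicate 3 (0.45, -0.20). As GRD/D has only 2 vehicle libraries, their deviations mirror each other, and so do their r (-0.45 for replicate 1 with Dex replicate 3). The block used the numbers as given, and in these genotypes it may not have joined libraries of the same culture.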
